A study of Mus musculus with 8 samples.

Results

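The genes described here encode regulators of chromatin, grouped by role into the core of Polycomb repressive complex 2 (PRC2), the subunits of Polycomb repressive complex 1 (PRC1), the BAF nucleosome remodelling complex, CHD remodellers, the DNA methylation machinery and histone deacetylases. They were taken from a list of 41 gene symbols. Of these, 40 had a row of their own on the array, out of 19938 genes with such a row. *Cbx6* was read only by a row shared with *Npcd* and *Nptxr* and is not counted among the 40. Levels were measured in mouse R1 embryonic stem (ES) cells after 4 days of differentiation towards neural progenitors (NP cells) in N2B27, a serum-free medium. The 4 *Sox3* null cultures came from a line with a GFP reporter knocked in at *Sox3*, and the 4 control cultures, titled Conditional and recorded as Sox3 positive, came from a line with a conditional *Sox3* allele, named wild type in the methods. Each genotype was represented by 2 cultures in each of 2 differentiation batches, and replicates 1 and 2 belong to batch 1 and replicates 3 and 4 to batch 2. Each genotype was carried by a single line, so the loss of *Sox3* and whatever else distinguishes the lines cannot be told apart.

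Polycomb complexes keep developmental genes silent. PRC2 methylates histone H3, PRC1 binds that mark through its CBX subunits and ubiquitinates histone H2A, and the PCGF subunit defines which form of PRC1 is made. BAF complexes use ATP to move nucleosomes, and they exchange progenitor subunits such as ACTL6A for neuronal ones such as ACTL6B when neural progenitors leave the cell cycle. DNA methylation is written by DNMT3A and DNMT3B, copied at replication by DNMT1 with UHRF1, and oxidised by TET enzymes, while histone deacetylases act mostly within corepressor complexes such as NuRD, which also holds CHD3 or CHD4.

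Values are log2 signals of a whole transcript probe set, and a difference of 1 on this scale is a doubling. *Sox3* itself read 8.39, 8.56, 8.67 and 8.37 in null replicates 1 to 4, against 9.92, 9.84, 9.73 and 9.76 in the control replicates. All 12 neural progenitor markers lay at or above the median signal of the named rows, 7.67. So did 38 of the 40 chromatin genes, the exceptions being *Dpf3* and *Actl6b*. *Sox3* read above that median in null cultures too, so a place above it does not by itself show expression. *Cbx8*, *Smarcd3* and *Hdac9* read below the *Sox3* values of null cultures on every array. The mean of the 12 progenitor markers ran from 11.36 to 11.55 in null cultures and from 11.11 to 11.33 in control cultures. All 12 had a log2 fold change above 0 for null over control. Of these, 3 (*Nes*, *Sox9* and *Zic1*) were called higher, at an adjusted p of 0.05 or less in the limma fit described below. By that rule 1.15% of all named rows were called higher and 0.393% lower. The mean of 12 neuronal markers ran from 8.67 to 8.90 in null cultures and from 8.52 to 8.61 in control cultures. Of them, 4 (*Map2*, *Neurod4*, *Nhlh1* and *Dll1*) were called higher. In value 11 lay above 0 for null over control, and *Stmn2* lay below, at -0.17. Of 10 fibroblast markers, which feeder cells would carry, 2 lay at or above the median signal, and their mean ran from 6.45 to 6.72 in null cultures and from 6.59 to 6.77 in control cultures. *Thy1* was the member of that list called lower, while 5 of the 10 lay above 0 for null over control and 5 below. Of 9 mesoderm and endoderm markers 3 lay at or above the median signal. Of the 9, 7 lay below 0 for null over control, with a median log2 fold change of -0.13, while *Cxcr4* was called higher. Their mean ran from 7.39 to 7.62 in null cultures and from 7.38 to 7.72 in control cultures. The part of any of these lists in the results below was not tested. In bulk RNA, fewer cells of a type and less RNA per cell cannot be told apart.

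Of the 40 genes, 2 differed between genotypes at an adjusted p of 0.05 or less (limma with genotype and batch as terms, p-values adjusted by Benjamini-Hochberg over 23410 named rows). *Bmi1* was higher in *Sox3* null cells and *Dnmt3b* was lower. By the same rule 1.55% of all named rows were called, 1.15% higher and 0.393% lower. Neither gene reached a fold change of 1.4, a size that 0.431% of all named rows reached with the same adjusted p. In a plain linear model with the same terms and each row's own variance, none of the 40 passed, against 47 of all named rows, and the adjusted p was 0.139 for both genes. At an unadjusted p under 0.05, 8 of the 40 genes were counted, 5 higher and 3 lower, against 13.1% of all named rows.

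The promoters of these 2 genes are shown because they carry the genotype calls. Each is the RefSeq sequence from 250 bases before to 50 bases after the start of the gene in GRCm38.p6, on the plus strand, at chr2:18676768-18677067 for *Bmi1* and chr2:153649199-153649498 for *Dnmt3b*. Capitals mark matches to ACAAT or ACAAAG on either strand, letters at the core of sites bound by SOX proteins, neither of which contains the other.
Bmi1: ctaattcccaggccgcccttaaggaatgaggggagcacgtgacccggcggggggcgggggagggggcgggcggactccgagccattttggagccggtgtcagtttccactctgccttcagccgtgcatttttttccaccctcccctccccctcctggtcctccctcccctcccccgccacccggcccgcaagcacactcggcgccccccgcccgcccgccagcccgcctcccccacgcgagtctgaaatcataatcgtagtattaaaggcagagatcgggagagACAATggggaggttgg
Dnmt3b: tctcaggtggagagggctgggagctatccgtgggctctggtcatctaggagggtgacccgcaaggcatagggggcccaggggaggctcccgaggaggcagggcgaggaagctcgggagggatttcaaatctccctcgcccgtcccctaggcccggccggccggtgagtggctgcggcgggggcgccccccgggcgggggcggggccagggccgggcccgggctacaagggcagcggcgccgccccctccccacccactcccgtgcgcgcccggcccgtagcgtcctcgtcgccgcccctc
The *Bmi1* window held 1 match, ACAAT, within the 50 bases after the start, and 23 CG dinucleotides. The *Dnmt3b* window held no match and 30 CG dinucleotides. Promoters were matched for 35 of the 41 listed genes, 45 promoters in all, and 26.7% of them held ACAAT or ACAAAG, against 37.8% of the 20131 promoters of all measured genes. The letters TTCCCGC or TTGGCGC, found in E2F sites, were present in 15.6% of these promoters and in 9.04% of all. The median number of CG dinucleotides was 29 in these promoters and 14 in all. Such matches describe the letters in a window, and nothing about binding follows from them.

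*Bmi1* encodes PCGF4, the PCGF subunit of PRC1 that neural stem cells need for self-renewal. Its log2 signal was 9.77, 9.58, 9.59 and 9.67 in null replicates 1 to 4, against 9.22, 9.17, 9.33 and 9.10 in the control replicates. Every null array lay above every control array. The log2 fold change was 0.45 (standard error or SE 0.07, 95% interval 0.30 to 0.59, limma adjusted p = 0.00741), a fold change of 1.36. It was 0.41 in batch 2 and 0.48 in batch 1. The interval of *Bmi1* was the single one among the 40 genes that reached beyond a 1.4-fold change. Without control replicate 3 the log2 fold change was 0.50, and *Bmi1* then passed the fold threshold too. The adjusted p ran from 0.00685 to 0.0307 when 1 array was left out, and was 0.0676 when unnamed rows of the table entered the fit.

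*Dnmt3b* encodes a de novo DNA methyltransferase, a gene strongly expressed in pluripotent and early embryonic cells. It read 10.33, 10.35, 10.34 and 10.40 in null replicates 1 to 4, against 10.78, 10.79, 10.60 and 10.58 in the control replicates. The null arrays lay within a narrow range below all controls, and the control arrays of batch 1 were the highest. Fitted over both batches, the log2 fold change was -0.33 (SE 0.06, 95% interval -0.46 to -0.21, limma adjusted p = 0.0154), with -0.22 in batch 2 and -0.44 in batch 1. For a difference of this effect between the batches, the unadjusted p was 0.0444 and the adjusted p was 1. The call was lost with unnamed rows in the fit (adjusted p = 0.0882) and without the batch term (0.115). Leaving out 1 array at a time, 4 of 8 fits lost the call. The adjusted p was 0.0642 without null replicate 1, 0.0514 without null replicate 2, 0.0699 without control replicate 1 and 0.0596 without control replicate 2.

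The pluripotency markers were read on the same arrays. The mean of 10 of them was 9.47, 9.41, 9.44 and 9.41 in null replicates 1 to 4, against 9.62, 9.63, 9.53 and 9.40 in the control replicates, so that the control arrays of batch 1 were again the highest. Their median log2 fold change was -0.12, with 7 of the 10 below 0. *Nanog* (-0.37) was the member called lower, as were 0.393% of all named rows. The control arrays of batch 1 were also the highest for the mean of the 9 mesoderm and endoderm markers (7.72 and 7.63). The part of either list in the *Dnmt3b* difference was not tested.

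**Figure D1:**
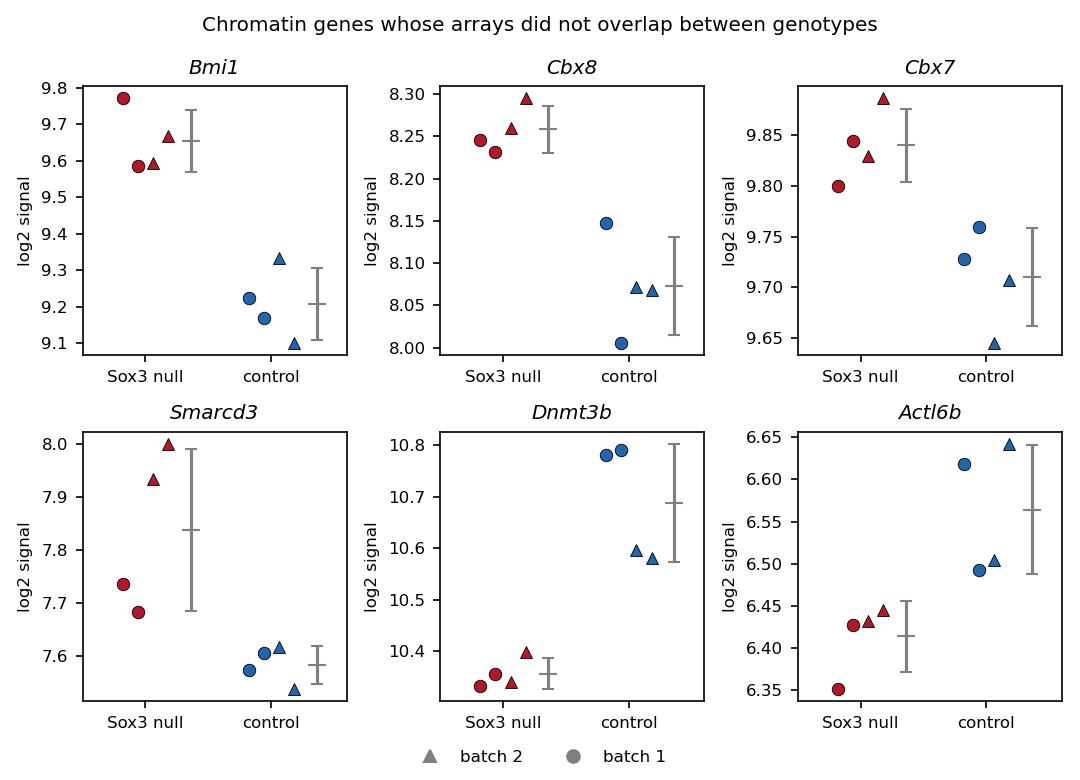
Log2 signal (vertical axis, with its own range in each panel) of 6 chromatin regulator genes in 4 *Sox3* null cultures (red, left) and 4 control cultures (blue, right). Cultures of batch 1 are circles and those of batch 2 triangles, with the mean and SD of 4 arrays in grey. *Bmi1*, *Cbx8*, *Cbx7* and *Smarcd3* were higher on every null array, and *Dnmt3b* and *Actl6b* lower on every null array.

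Over all 8 arrays the genotypes did not overlap for 6 of the 40 genes, against 4.6% of all named rows. *Bmi1*, *Cbx7*, *Cbx8* and *Smarcd3* were higher on every null array, as were 2.41% of all named rows, and *Dnmt3b* and *Actl6b* were lower on every null array, as were 2.19%. With *Rnf2*, 7 genes had the null arrays apart from the controls, and on the same side, within either batch, against 12.1% of all named rows. Apart from *Bmi1* and *Dnmt3b*, these genes did not pass the test.

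The 4 core genes of PRC2 had log2 fold changes between -0.07 and 0.10, and none passed. *Ezh2*, the main catalytic subunit of PRC2 in dividing cells, read 12.57, 12.61, 12.63 and 12.65 in null replicates, against 12.57, 12.55, 12.69 and 12.57 in control replicates. Its log2 fold change was 0.02, with a 95% interval of -0.09 to 0.13. *Ezh1*, the paralogue that is also used in non-dividing cells, had -0.07 (interval -0.18 to 0.04). *Eed*, whose protein binds the methyl mark, read 10.34, 10.35, 10.45 and 10.31 in null replicates, against 10.24, 10.30, 10.33 and 10.21 in control replicates. It had the smallest p of the 4, with a log2 fold change of 0.10 (SE 0.05, limma adjusted p = 0.497).

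*Suz12*, which encodes the scaffold of PRC2, was the single gene of the 40 whose genotype difference turned between the batches with no overlap in either. In batch 2 the null arrays read 10.81 and 10.92, against 11.09 and 11.06 in the control arrays. In batch 1 the null arrays read 11.15 and 11.10, against 10.93 and 11.09 in the control arrays. The log2 fold change was -0.21 in batch 2 and 0.12 in batch 1 (unadjusted p = 0.0172 and adjusted p = 1 for the difference, limma), and opposite sides of this kind were taken by 2.98% of all named rows. Over both batches it was -0.05 (interval -0.21 to 0.11).

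Of the 10 measured PRC1 genes, *Bmi1* rose and 9 did not pass, with a median log2 fold change of 0.04. At an unadjusted p under 0.05 there were 4, all above 0 (*Bmi1*, *Cbx8*, *Rnf2* and *Cbx7*). This compares with 13.1% of all named rows in either direction, or 3068 rows, of which 1711 were above 0. Of the 11705 named rows at or above the median signal, where all 10 genes lay, it was 1750 rows, of which 1223 were above 0. *Cbx8*, a chromodomain subunit, read 8.25, 8.23, 8.26 and 8.29 in null replicates, against 8.15, 8.01, 8.07 and 8.07 in control replicates. The null arrays lay closely together above all controls, with a log2 fold change of 0.18 (SE 0.05, 95% interval 0.07 to 0.29, limma adjusted p = 0.118). *Cbx7*, a chromodomain subunit prominent in ES cells, read 9.80, 9.84, 9.83 and 9.89 in null replicates, against 9.73, 9.76, 9.65 and 9.71 in control replicates. Its log2 fold change was 0.13 (SE 0.05, limma adjusted p = 0.281), with 0.18 in batch 2 and 0.08 in batch 1.

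*Rnf2* encodes RING1B, the main ubiquitin ligase of PRC1, and its null over control difference was 0.15 (interval 0.03 to 0.26, limma adjusted p = 0.254). Its paralogue *Ring1* had 0.06 (interval -0.09 to 0.21). Among the genes for the PCGF subunits that replace BMI1 in other forms of PRC1, *Pcgf2* had -0.10 and *Pcgf6* 0.02, both with intervals that include 0. *Cbx2*, a further chromodomain gene, had -0.01. The polyhomeotic genes, whose proteins join PRC1 into larger assemblies, lay below 0 with -0.15 for *Phc1* (adjusted p = 0.39) and -0.08 for *Phc2* (adjusted p = 0.589). *Phc1* had -0.03 in batch 2 and -0.27 in batch 1. The row shared by *Cbx6*, *Npcd* and *Nptxr* had a log2 fold change of -0.12 and names no single gene.

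None of the 14 BAF genes passed, and their log2 fold changes ran from -0.15 to 0.25 with a median of 0.01. *Smarcd3* had the smallest p. It encodes BAF60C, an alternative to the subunits encoded by *Smarcd1* and *Smarcd2* and known for its role in heart and muscle. Its log2 signal was 7.74, 7.68, 7.93 and 8.0 in null replicates, against 7.57, 7.61, 7.62 and 7.54 in control replicates. All null arrays lay above all controls, most clearly in batch 2. Fitted over both batches, the log2 fold change was 0.25 (SE 0.06, 95% interval 0.12 to 0.39, limma adjusted p = 0.0883), with 0.39 in batch 2 and 0.12 in batch 1 (unadjusted p = 0.0252 for the difference, adjusted p = 1). *Smarcd1* had 0.01 with an interval of -0.10 to 0.12.

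*Actl6b*, the neuronal subunit gene, read 6.35, 6.43, 6.43 and 6.44 in null replicates, against 6.62, 6.49, 6.50 and 6.64 in control replicates. These values lie below the median signal of the named rows, do not overlap between genotypes and gave a log2 fold change of -0.15 (SE 0.05, limma adjusted p = 0.255), while the neuronal marker mean given above was higher in null cultures. *Actl6a*, its progenitor counterpart, read 12.15 to 12.45 in null cultures and 12.17 to 12.40 in control cultures, with 0.05 for null over control (interval -0.06 to 0.17). *Dpf1* and *Dpf3*, which encode subunits of neuronal BAF, had -0.01 and 0.03. The ATPase genes *Smarca4* and *Smarca2* had -0.02 and 0.08. The core and DNA binding subunit genes *Smarcb1*, *Smarcc1*, *Smarcc2*, *Smarce1*, *Arid1a* and *Arid1b* lay between -0.04 and 0.04. Of the 14 intervals, all lay inside a 1.4-fold change in either direction.

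None of the 4 CHD genes passed. *Chd3*, a remodeller of the NuRD complex, read 9.51, 9.46, 8.98 and 9.19 in null replicates, against 9.68, 9.64, 9.19 and 9.46 in control replicates. Both null arrays lay below both controls in batch 1, and in batch 2 null replicate 4 and control replicate 3 met at 9.19. The log2 fold change was -0.21 (SE 0.07, 95% interval -0.36 to -0.06, limma adjusted p = 0.215), with -0.24 in batch 2 and -0.18 in batch 1. Its NuRD paralogue *Chd4* had -0.01 (interval -0.14 to 0.12), and *Chd1*, a remodeller of active genes, had -0.11 (interval -0.25 to 0.03).

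*Chd7*, a remodeller mutated in CHARGE syndrome that acts with SOX2 in neural stem cells, was read by 30 rows. The brightest gave 0.06 for null over control (interval -0.09 to 0.21). Over the 30 rows the values ran from -0.04 to 0.27 with a median of 0.05. Of these rows 23 lay above 0, 2 had an unadjusted p under 0.05 and none passed over all named rows (smallest limma adjusted p = 0.29). The rows read 1 gene and are not replicates.

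Of the 5 DNA methylation genes, *Dnmt3b* fell and 4 did not pass. *Dnmt3a*, the other de novo enzyme gene, stood at -0.00 for null over control (95% interval -0.13 to 0.12). That interval lies above the whole interval of *Dnmt3b*, though the difference between the genes was not tested. *Dnmt1*, the maintenance enzyme gene, had 0.01 over both batches, with -0.12 in batch 2 and 0.14 in batch 1 (unadjusted p = 0.0699 for the difference). *Uhrf1*, whose protein brings DNMT1 to newly replicated DNA, had -0.05 (interval -0.15 to 0.05). *Tet3*, a methylcytosine oxidase gene, had 0.03 (interval -0.14 to 0.20).

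The class I deacetylase genes *Hdac1* and *Hdac2* had log2 fold changes of -0.00 and 0.02, with intervals of -0.12 to 0.12 and -0.11 to 0.15. *Hdac9*, a class IIa gene, had the smallest p of the 3 and is named for that reason alone. It read 7.74, 7.86, 7.94 and 8.07 in null replicates, against 7.88, 7.77, 7.90 and 7.89 in control replicates, and the genotypes overlapped. Fitted over both batches, the log2 fold change was 0.05 (SE 0.06, limma adjusted p = 0.816).

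**Figure D2:**
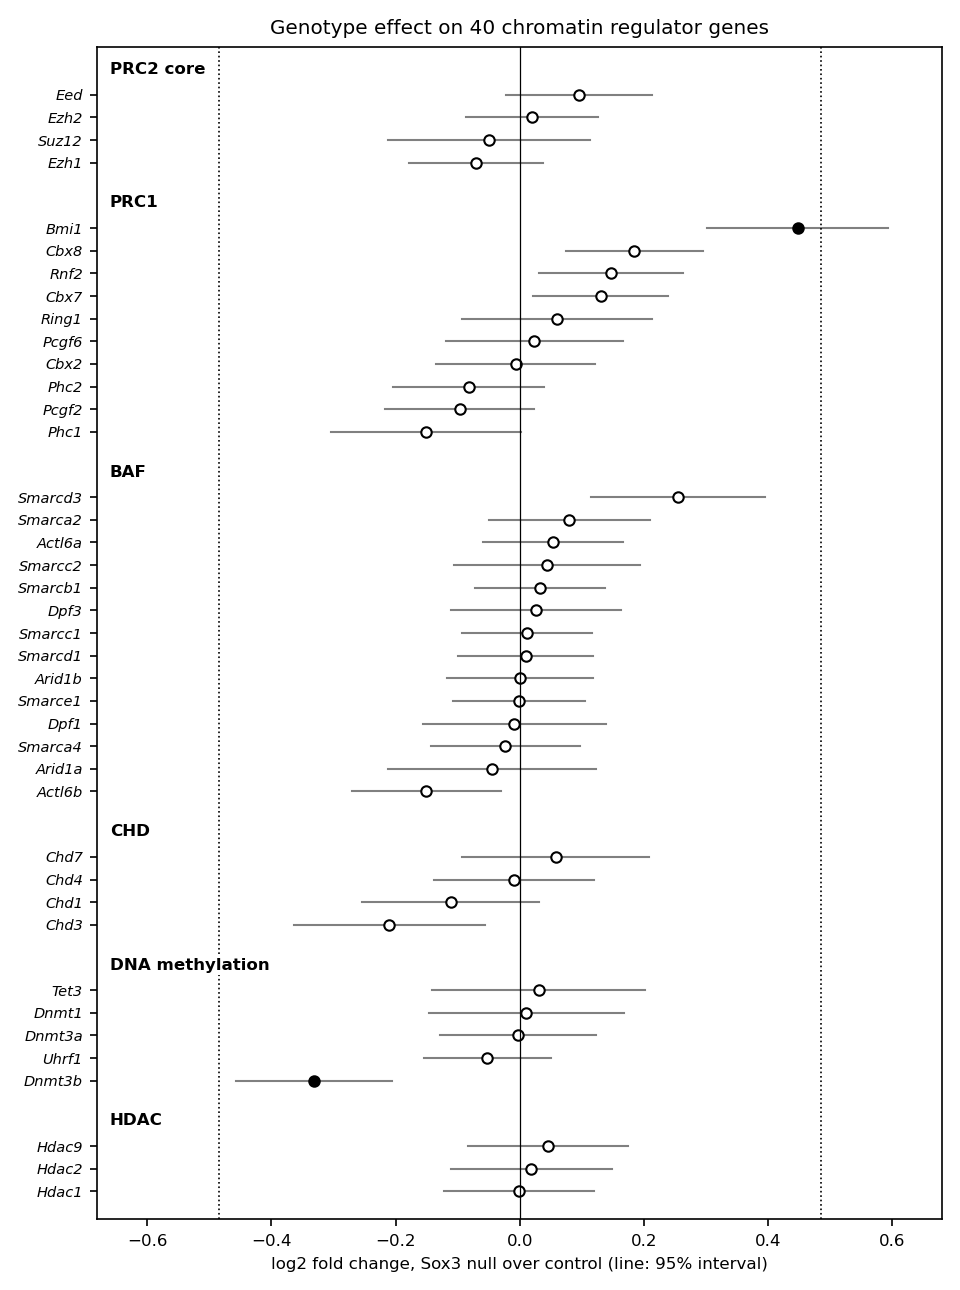
Horizontal axis, log2 fold change in *Sox3* null over control cultures (n = 4 arrays each) for 40 chromatin regulator genes, grouped by role. Limma estimates are points, filled at an adjusted p of 0.05 or less, with the 95% interval as a line. The dotted lines stand at a 1.4-fold change. *Bmi1* and *Dnmt3b* are the filled points, and the line of *Bmi1* alone crosses a dotted line.

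Across all roles, the 40 genes had a median log2 fold change of 0.01, against 0.00 for all named rows and 0.02 for named rows at or above the median signal. There were 22 genes above 0 and 18 below. Of the 40, 90% lay within 0.2 of 0, against 94.2% of all named rows. The 95% interval lay inside a 1.4-fold change for 39 genes, or 97.5%, against 98.1% of all named rows. The median residual SD was 0.0765 for these genes and 0.0869 for all named rows.

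**Figure D3:**
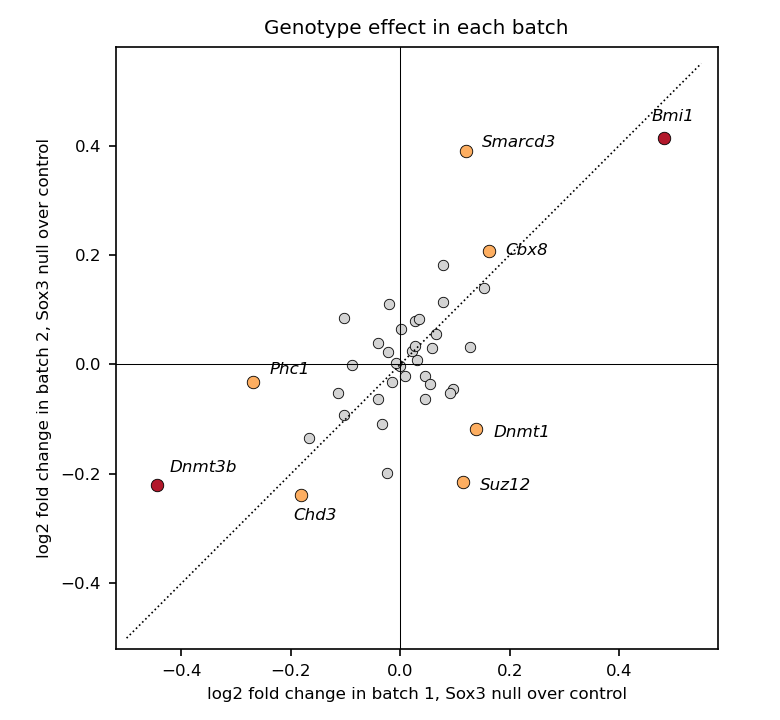
Genotype effect, as log2 of *Sox3* null over control, in batch 2 (vertical axis) and batch 1 (horizontal axis) for 40 chromatin regulator genes, each from 2 arrays of either genotype per batch. Dark red points had an adjusted p of 0.05 or less over both batches, orange points are other labelled genes, and the dotted line marks equal values. *Bmi1* read 0.41 in batch 2 and 0.48 in batch 1, *Dnmt3b* -0.22 in batch 2 and -0.44 in batch 1, and *Suz12* -0.21 in batch 2 and 0.12 in batch 1.

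A genotype difference that depended on batch was detected by limma for 0 of the 40 genes and for 0% of all named rows. The smallest adjusted p over all named rows was 0.862. At an unadjusted p under 0.05 there were 3 of the 40 (*Suz12*, *Smarcd3* and *Dnmt3b*), against 3.05% of all named rows, and the plain linear model gave 0. With 2 arrays of each genotype in a batch, differences of this kind were estimated with little precision.

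The batches differed more than the genotypes for most of these genes. The size of the batch difference exceeded that of the genotype difference for 30 of the 40 genes, or 75%. The share was 62.9% for all named rows and 73.7% for named rows at or above the median signal. At an adjusted p of 0.05 or less 8 genes differed between the batches, or 20%, against 20.2% of all named rows. Batch calls were more frequent among named rows at or above the median signal, with 3860 of 11705, and 38 of the 40 genes lay there. The count of chromatin genes was 5 in the plain linear model, where 2787 of the 23410 named rows were called. The count of chromatin genes was 4 without null replicate 2, null replicate 3 or control replicate 1, and 3 without control replicate 3. *Ezh1*, *Actl6a* and *Hdac1* were higher in batch 2 (10.9% of all named rows were), and *Ring1*, *Arid1a*, *Arid1b*, *Chd3* and *Tet3* were lower in batch 2 (9.35% of all named rows were). The arrays of the batches did not overlap for 9 of the 40 genes, which were *Hdac9*, *Smarcd1* and all those called other than *Chd3*, against 21% of all named rows.

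*Tet3* had the largest difference between the batches of the 40. In batch 2 it read 9.48 and 9.71 in null cultures and 9.39 and 9.74 in control cultures. In batch 1 it read 10.04 and 10.11 in null cultures and 10.06 and 10.04 in control cultures. Both genotypes were thus lower in batch 2 by nearly the same amount, -0.48 in null and -0.49 in control cultures (batch log2 difference -0.48, SE 0.08, limma adjusted p = 0.00168). A dimmer second *Tet3* row gave -0.42 and was also called.

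*Chd3*, whose arrays are given above, had a batch log2 difference of -0.36 (SE 0.07, limma adjusted p = 0.00432), with -0.39 in null and -0.34 in control cultures. *Arid1b*, the gene of a large DNA binding BAF subunit, read 10.75 and 10.89 in null and 10.74 and 10.86 in control cultures of batch 2. In batch 1 it read 11.02 and 11.02 in null and 11.03 and 11.05 in control cultures. The batches did not overlap, and the difference was -0.22 (SE 0.05, limma adjusted p = 0.0146), and 0.051 was the adjusted p without control replicate 3. Its paralogue *Arid1a* had -0.25 (adjusted p = 0.0379) and *Ring1* -0.22 (adjusted p = 0.0483). Both passed without control replicate 4. With any other single array left out, *Arid1a* passed only without null replicate 4 and *Ring1* only without null replicate 1.

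*Ezh1* ran the other way. It read 8.85 and 8.88 in null and 8.98 and 8.97 in control cultures of batch 2, and 8.73 and 8.62 in null and 8.70 and 8.72 in control cultures of batch 1. The batch log2 difference was 0.23 (SE 0.05, limma adjusted p = 0.00821). *Actl6a* read 12.45 and 12.41 in null and 12.40 and 12.30 in control cultures of batch 2, against 12.27 and 12.15 in null and 12.17 and 12.19 in control cultures of batch 1.

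The difference of *Actl6a* was 0.20 (SE 0.05, limma adjusted p = 0.0201), but the adjusted p was above 0.05 without null replicate 2 (0.0672), null replicate 3 (0.0568), control replicate 1 (0.053) or control replicate 3 (0.0638). *Hdac1* read 12.14 and 11.96 in null and 12.02 and 12.00 in control cultures of batch 2, and 11.83 and 11.79 in null and 11.83 and 11.88 in control cultures of batch 1. Its difference was 0.20 (SE 0.05, limma adjusted p = 0.0242), and both of its rows were called. Its adjusted p was 0.0564, 0.0727 and 0.0645 without null replicates 1, 2 and 3, and 0.0638 and 0.0553 without control replicates 1 and 3. *Ezh1*, *Actl6a* and *Hdac1* were higher on every array of batch 2 than on any of batch 1.

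Of the 30 *Chd7* rows, 28 were lower in batch 2 in value, with a median of -0.12, and 1 was called. Cell cycle markers moved with the batches as well. The mean of 11 of them ran from 12.15 to 12.20 in batch 2 and from 11.95 to 11.99 in batch 1. Of the 11 markers, 7 were called higher in batch 2, as were 10.9% of all named rows. All 11 lay at or above the median signal, where 2204 of 11705 named rows were called higher in batch 2. None of the 11 differed between genotypes, with a median log2 fold change of 0.00 (0 at an unadjusted p under 0.05 and 0 in the plain linear model). The part of the cell cycle markers in the batch differences was not tested.

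**Figure D4:**
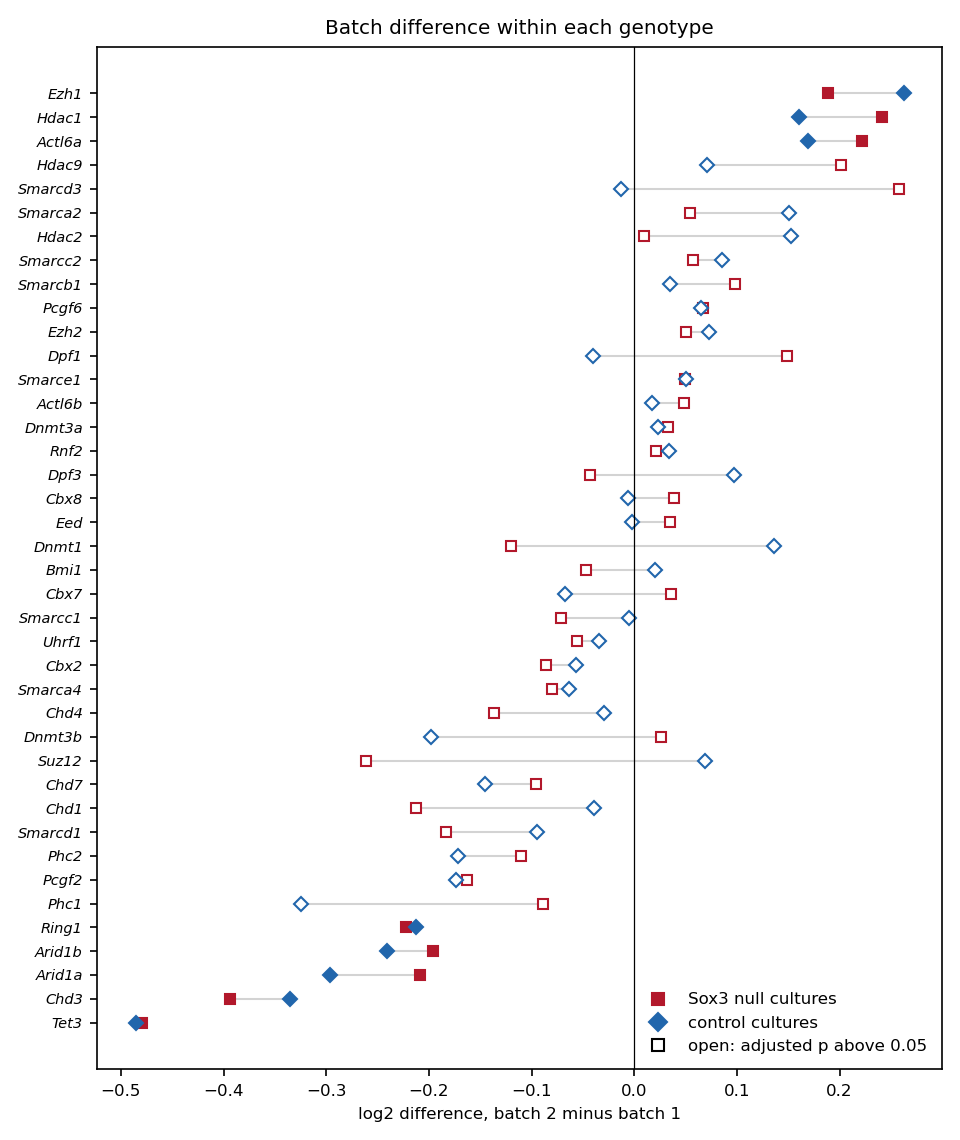
Log2 difference of batch 2 minus batch 1 (horizontal axis) for 40 chromatin regulator genes, from 2 arrays per batch in *Sox3* null cultures (red squares) and in control cultures (blue diamonds). Filled marks are genes with an adjusted p of 0.05 or less for batch over both genotypes. *Tet3* reads -0.48 in null and -0.49 in control cultures, and *Ezh1* 0.19 and 0.26.

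A second list held other genes of the same complexes and pathways, of which 65 with a row of their own are described here. *Tdg* was read only by rows shared with *Tdg-ps2* and is not counted. Of the 65 genes 1 was lower in *Sox3* null cells and 0 were higher, against 0.393% and 1.15% of all named rows, and in the plain linear model 0 passed. At an unadjusted p under 0.05 there were 8, with 4 in either direction, against 13.1% of all named rows. The log2 fold changes of the 65 ran from -0.26 to 0.24, around a median of 0.01.

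The gene that fell was *Hdac6*, which encodes a cytoplasmic deacetylase of tubulin. *Hdac6* lies on the X chromosome, as *Sox3* does, and the part of that position was not tested. It read 9.95, 9.96, 9.85 and 9.97 in null replicates, against 10.21, 10.18, 10.13 and 10.21 in control replicates. The arrays did not overlap, and the log2 fold change was -0.25 (SE 0.05, 95% interval -0.36 to -0.14, limma adjusted p = 0.0334), with -0.26 in batch 2 and -0.24 in batch 1. Leaving out 1 array at a time, 7 of 8 fits lost the call, with adjusted p from 0.0716 without control replicate 3 to 0.121 without control replicate 1, and the call held without null replicate 4 (0.0489).

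*Jarid2*, which encodes a PRC2 cofactor of ES cells, read 11.63, 11.58, 11.46 and 11.66 in null replicates, against 11.84, 11.89, 11.75 and 11.82 in control replicates. No null array reached a control array, with a log2 fold change of -0.24 (SE 0.06, limma adjusted p = 0.067). It passed when rows below the median signal were left out, with an intensity trend in the variance, and without null replicate 4. *Hdac7*, a class IIa deacetylase gene, had 0.24 (adjusted p = 0.0883).

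The other genes named by the smallest p of their list did not pass either. *Rbbp4*, a histone chaperone shared by PRC2 and NuRD, had 0.11. The PRC1 genes *Pcgf5* and *Yaf2* had 0.19 and 0.13, and the BAF genes *Smarcd2* and *Brd7* had -0.16 and 0.10. The remodeller genes *Chd6* and *Chd5* had -0.26 and -0.16. *Zfp57* and *Trim28*, whose proteins keep methylation at imprinted regions, had 0.14 and -0.07. Their adjusted p lay between 0.232 for *Chd6* and 0.573 for *Trim28*.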

How the data were processed

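RNA from 4 *Sox3* null and 4 control Day 4 cultures was hybridised to Affymetrix Mouse Gene 1.0 ST arrays, 1 per culture. The deposited values are log2 signals per transcript cluster, normalized and summarised by the authors. Partek is named in the submitters' processing notes. The normalization, summary method and build were not given in the sources used here. Per the labels the ES cells grew on gelatine, and per the methods on irradiated feeder fibroblasts. Array medians lay between 7.63 and 7.70, no 2 arrays held identical values, and the number of arrays limits the precision. Of 35556 rows, 21789 had 1 gene symbol in the platform annotation (21698 matched by gene ID to the RefSeq table of GRCm38.p6), 1621 had several and for 12146 no symbol was used.

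Linear models with genotype and differentiation batch were fitted to the 23410 named rows with limma 3.58.1 (R 4.3.3), with empirical Bayes variances and Benjamini-Hochberg adjustment over all of these rows. The methods name a 2-way ANOVA with batch as a factor and thresholds of 0.05 and 1.4-fold. Calls were made at an adjusted p of at most 0.05, at any fold. A second fit added the product of genotype and batch. Steps were tested on simulated arrays. Where several rows carried a symbol, the brightest stood for the gene, and rows with several symbols were left out. The text gives array values for genes called, for the smallest genotype p of each role, for the 6 smallest batch p and for genes whose genotypes did not overlap. Array values of *Suz12*, *Ezh2* and *Jarid2* were added after their values were seen. Of the second list it names called genes and otherwise the 2 smallest p of each group. The members and all lists were chosen with earlier results of these data known. The paper calls the cultures biological replicates, and p-values measure the spread between these cultures.

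The alternatives were all rows, a filter on dim rows, other treatments of batch and replicate number, variances of each row alone or with an intensity trend, renormalization, weighting of arrays, averaging of rows, each batch or genotype alone, and leaving out each array. Promoter letters were counted on both strands of RefSeq promoters, with none matched for *Chd1*, *Chd3*, *Chd7*, *Smarce1*, *Cbx2* and *Hdac1*. Other assays of the study were not analysed here.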

Additional observations from a re-analysis of the deposited data

Results flagged for a closer look

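Of 80 groups of 4 arrays, 4 held 1 array far from the other 3, and chance flags about 1 group in 20. The gap to the nearest array, as a share of the range of the group, was 0.834 for *Smarce1* in null cultures, where replicate 2 read 12.3 on the log2 scale and the others 12.4. It was 0.849 for *Ezh2* in control cultures, where replicate 3 was highest at 12.69 with 12.57 next. It was 0.851 for *Dpf3* in control cultures, where replicate 2 was lowest at 6.61 with 6.81 next. It was 0.876 for *Uhrf1* in control cultures, where replicate 1 was highest at 10.90 with 10.82 or 10.81 in the others. None of these 4 genes was called for genotype or batch.

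*Suz12* stood out because its genotypes lay on opposite sides in the batches, with no overlap of arrays in either. In batch 1 the nearest arrays were close, at 11.10 in null and 11.09 in control cultures. The log2 fold change was -0.21 in batch 2 and 0.12 in batch 1, a difference of -0.33 with an unadjusted p of 0.0172 and an adjusted p of 1 from limma.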

How the results depend on the processing

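There were 317 pairs of a gene result and an alternative, over 17 gene results. Of these, 267 kept direction and side of the threshold, 49 kept direction but no longer passed and 1 turned. The pair that turned was *Hdac9* between genotypes in batch 1 alone (-0.0197). Results that did not pass in the report had no call to lose, so all 49 losses fell on those that did. Of 20 alternatives, the genotype call was lost in 4 for *Bmi1*, 9 for *Dnmt3b* and 13 for *Hdac6*. Of 18 alternatives, the batch call was lost in 1 for *Tet3*, 1 for *Chd3*, 2 for *Ezh1*, 3 for *Arid1b*, 7 for *Actl6a* and 9 for *Hdac1*. The number of chromatin genes called for genotype, 2 in the report, was 0 over all rows of the table, 0 in the plain linear model and 0 in either batch alone, and 1, *Bmi1*, without the batch term. It ran from 1 to 2 when 1 array was left out. The number called with a fold of 1.4, 0 in the report, ran from 0 to 1 when 1 array was left out and was 0 in all other alternatives. The log2 fold change of *Bmi1* ran from 0.40 to 0.50 and its adjusted p from 0.00292 to 0.318, and for *Dnmt3b* these ran from -0.44 to -0.22 and from 0.00631 to 0.613. The number called for batch, 8 in the report, was 5 over all rows, 5 in the plain linear model, 2 in null cultures alone (*Chd3* and *Tet3*) and 0 in control cultures alone. It was 11 after leaving out rows below the median signal, 11 with an intensity trend in the variance and 11 after a further quantile normalization. It ran from 3 to 9 when 1 array was left out, with 3 without control replicate 3, and fits within a genotype rest on 4 arrays. The number with a genotype difference that depended on batch was 0 in all 10 alternatives. The cause of these shifts was not tested. Except for the plain linear model, calls over all named rows were not counted for these alternatives. Whether the shifts are particular to chromatin genes was therefore not tested.

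Among the other chromatin genes, 1 of which was called, the number was 0 over all rows, with no term for batch, with a random block for batch, in the plain linear model, in batch 2 alone and in batch 1 alone. It was 2 after leaving out rows below the median signal and 2 with an intensity trend in the variance. It ran from 0 to 2 when 1 array was left out. Except for the filter on signal and the left-out arrays, these alternatives were chosen after seeing the data.

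The labels give the genotypes the same replicate numbers, which mark the batches. Beyond batch the same-numbered cultures did not deviate together in both batches, with correlations of 0.305 in batch 2 and -0.324 in batch 1. With the replicate number as a block in place of batch, 2 chromatin genes were called (*Bmi1*, adjusted p = 0.013, and *Dnmt3b*, 0.0387), as was 1 of the other chromatin genes (*Hdac6*, 0.0466), so no call changed.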
